A study of Bos taurus with 18 samples.

Results

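The mature bovine egg was compared with the embryo after activation of its genome, using 3 libraries of metaphase II (MII) oocytes and 3 libraries of 8-cell embryos, 6 of the 18 libraries of the series. The 3 libraries of 4-cell embryos were used to see which genes had already moved. The comparison covered all 17138 genes that had a read in 3 or more of the 18 libraries. The MII oocytes were German Simmental oocytes matured in vitro and freed of cumulus cells. The 4-cell and 8-cell embryos were produced by fertilization in vitro of such oocytes with semen of a Zebu bull, their breed being given as German Simmental x Brahman, and were cultured until they reached the stage. For each library, 10 oocytes or embryos were pooled. The labels name no drug and no engineered allele for any of these groups. Breed changes together with stage between the egg and the embryo, so the sire's alleles and development cannot be told apart. The labels do not say whether the pools of a stage came from separate collections or culture runs. The p-values rest on a spread between pools of a stage, estimated over all 6 stages and 18 libraries. That spread may in part be technical. Pools were not equally alike in each stage. Their rank correlations were 0.94 to 0.954 in MII, 0.935 to 0.951 in 4-cell, 0.858 to 0.909 in 8-cell and 0.854 to 0.881 in 16-cell libraries.

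A mature oocyte makes almost no new RNA. It carries a store of maternal messenger RNAs, and the first cleavages run on that store while part of it is degraded. In cattle the main activation of the embryo's own genome takes place around the 8-cell stage, and activation in mammals is known for homeobox and zinc finger genes that are expressed briefly at that time, among them DUXA, ZSCAN4 and KLF17.

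The 9 libraries held 5206082 to 11971840 reads assigned to genes. Levels are given as scaled counts, that is reads divided by the library's size factor, and 1 read was worth 0.563 to 1.31 of them. They are levels relative to the typical gene of a library and give no amount per embryo. In a pool fewer cells of a kind and less RNA per cell cannot be told apart. The 8-cell replicate 2 stood apart from its group. Its reads fell on 12393 genes, where replicates 1 and 3 covered 14081 and 14618, its rank correlation across genes with those was 0.873 and 0.858 against 0.909 between them, and on the first principal component it lay at -68.88 against -21.86 and 20.5, with the MII libraries at -118.07 to -112.28. Its part in the results was not tested beyond the values given without it. Oocyte genes were abundant in the MII libraries: BMP15, an oocyte growth factor, stood at 15885 ± 1664 and ZP2, a protein of the egg coat, at 40912 ± 4489 (SD, n = 3). BMP15 was also among the most abundant genes at 8 cells, so it does not set the egg apart from these embryos. ZP2 was lower at 8 cells. Of 30 cumulus and granulosa cell markers tested, 1 was higher and 2 were lower in 8-cell embryos, and their summed level was 4876 to 6551 in MII and 4052 to 5999 in 8-cell libraries. FOXL2, which defines granulosa cells, had 0 reads in all 6 libraries, and the follicle-stimulating hormone receptor FSHR had 0 reads in all 3 MII libraries. The higher one was COL1A1, a collagen gene. Of the lower ones, STAR and PTGS2, 0 were called without MII replicate 1, 2 or 3 or 8-cell replicate 3, and 1 was called without each of the other 5 libraries. Of 13 sperm and spermatid markers tested, 1 was higher (TNP1) and 1 lower (LDHC), at a summed level of 1043 to 1111 in MII and 549 to 1528 in 8-cell libraries, and the protamines PRM1 and PRM2 had 0 reads in all 6. The TNP1 call was lost without each of the 9 libraries except 8-cell replicate 2, and the LDHC call without MII replicate 1 or 3 or 8-cell replicate 3. Of 9 blood and leukocyte markers, CD3E was lower, a call lost without MII replicate 1 or 3 or 8-cell replicate 1 or 2, and without 8-cell replicate 2 another marker, in the other direction, gave 1 call. The blood list summed to 927 to 1071 in MII and 639 to 1330 in 8-cell libraries, and haemoglobin beta (HBB) had 0 reads. In the cumulus, sperm and blood lists 1 of 31, 8 of 24 and 2 of 12 measured members had 0 reads in all 6 libraries. The genes without reads named here were picked after their values were seen. They do not show that such cells were absent.

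Between the egg and the 8-cell embryo 1528 genes rose and 1264 fell (limma, adjusted p under 0.05), 8.92% and 7.38% of the genes tested. At an unadjusted p under 0.05 there were 4823. The 3 MII and the 3 8-cell values did not overlap for 5129 genes (29.9% of those tested), among them 1419 of the rises and 1225 of the falls. The rises were the larger changes. Their median difference was 2.85 on the deposited log2-like scale, with quartiles of 1.87 and 4.04, against -2.27 with quartiles of -2.97 and -1.64 for the falls. The median over all genes tested was 0.00, and -0.12 when the medians of the libraries were set equal. With that setting 1298 genes rose and 1374 fell, so the share of rises among the calls was 48.6% in place of 54.7%, and which direction held more genes depended on the scaling. Without MII replicate 1 the falls numbered 822.

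Rises and falls started from different parts of the egg's RNA. The genes that rose had a median level of 26.4 scaled counts in MII and 366 in 8-cell embryos, and 289 of them had 0 reads in all 3 MII libraries. A further 341 lay above 0 and up to 10 scaled counts in the egg, 365 between 10 and 100, 447 between 100 and 1000, and 86 above 1000. The genes that fell had a median level of 442 in MII and 96.5 in 8-cell embryos. The median such gene kept 21.2% of its MII level, with quartiles of 9.17% and 33.4%, and 92 had 0 reads in all 3 8-cell libraries. Of the 1770 genes at 1000 or more scaled counts in the egg, 405 fell (22.9%) and 86 rose (4.86%). A low gene can hardly be seen to fall, so these shares describe where calls could be made as well as where they were.

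**Figure D1:**
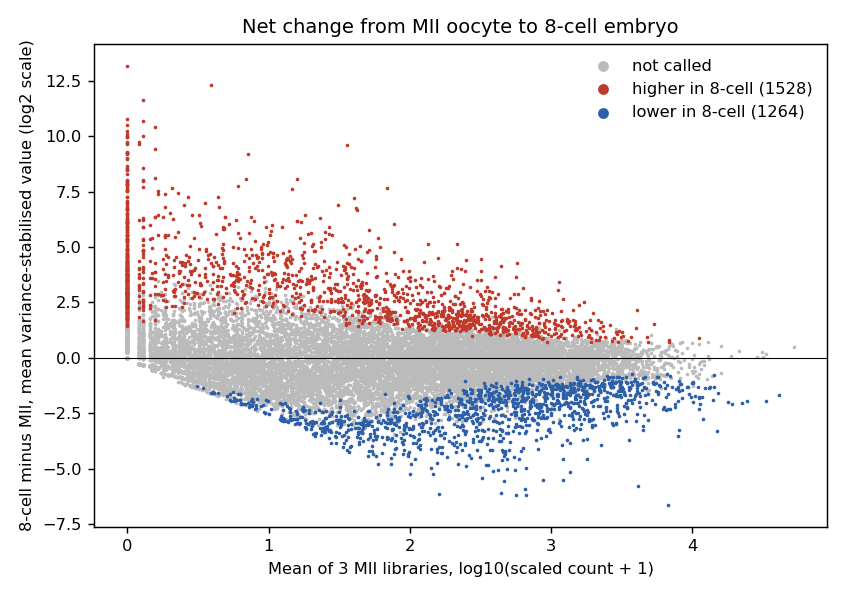
Difference of mean variance-stabilised values (8-cell minus MII, log2 scale) against the mean MII level (log10 of scaled count + 1) for 17138 genes, 1 point per gene. The 1528 rises (red) reach furthest above 0 among genes with few or no reads in the egg, and the 1264 falls (blue) spread over the moderate and high levels.

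In each 8-cell library the median of the called genes lay on the side of the call. In 8-cell replicates 1, 2 and 3 the genes that rose lay a median of 2.87, 2.21 and 3.21 above their MII mean, and the genes that fell lay at -1.97, -2.43 and -2.13. These medians contain the choice of the genes. In these medians replicate 2 lay nearest to the egg for the genes that rose and farthest from it for those that fell. With genes called without the library in question, replicate 2 was again nearest for the rises but not farthest for the falls. For the rises its median was then below 2.21, against 3.13 in the other 8-cell libraries, which entered the call. Of the rises so called, 93.9%, 72.3% and 96.1% lay above every MII library in 8-cell replicates 1, 2 and 3. Of the falls so called, 89%, 86.8% and 88.1% lay below every MII library. The falls then lay at a median of -1.67, -1.69 and -1.88 in 8-cell replicates 1, 2 and 3.

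**Figure D2:**
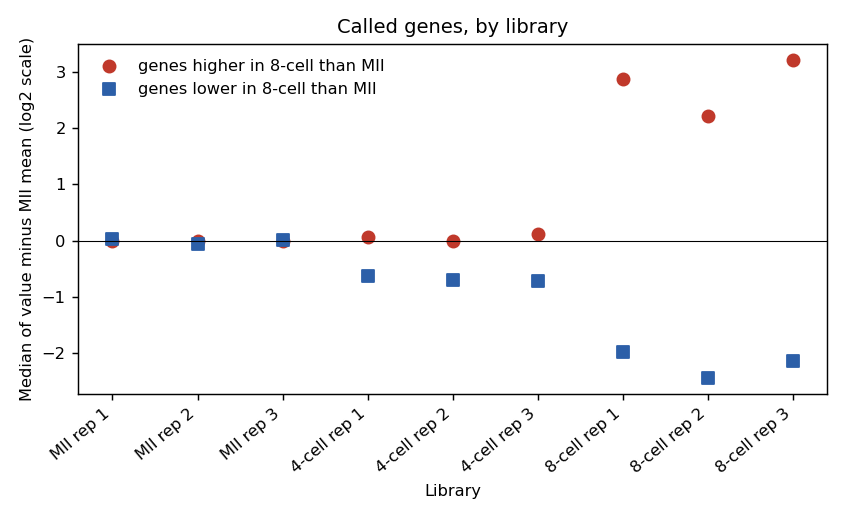
Median over the 1528 rises (red circles) and 1264 falls (blue squares) of each library's variance-stabilised value minus the MII mean (log2 scale), for the 9 MII, 4-cell and 8-cell libraries. In the 4-cell libraries the rises sit at 0.00 to 0.12 and the falls at -0.72 to -0.63, and in the 8-cell libraries at 2.21 to 3.21 and -2.43 to -1.97.

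Few of these genes passed the test at the 4-cell stage, and more of the falls than of the rises did. In 4-cell against MII, 11 genes rose (0.0642% of those tested) and 125 fell (0.729%), with 1320 at an unadjusted p under 0.05. Of the 1528 rises to the 8-cell stage, 7 (0.46%) were already called higher at 4 cells, and of the 1264 falls 52 (4.11%) were already called lower. At an unadjusted p under 0.05, 112 of the rises and 351 of the falls differed from the egg in the same direction at 4 cells, and the median 4-cell minus MII difference was 0.15 for the rises and -0.69 for the falls, so genes without a call at 4 cells are not shown to be unmoved. Both comparisons use the MII libraries, so these counts are descriptive. The call counts at 4 cells moved with the fit and with single libraries. With array weights the 7 and the 52 became 95 and 347. The 52 became 28 without MII replicate 2, 22 without MII replicate 3, 32 without 4-cell replicate 1 and 28 without 4-cell replicate 3, and the 7 became 4, 2 and 4 without the first 3 of these libraries. From 4 to 8 cells, with no MII library involved, 1480 genes rose (8.64%) and 708 fell (4.13%). Of the 1528 net rises 1173 were called in this step as well, and of the 1264 net falls 508.

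The 7 genes already higher at 4 cells included both subunits of DSIF, the factor that holds and then releases elongating RNA polymerase II. SUPT4H1 stood at 0, 0.659 and 0 scaled counts in the MII libraries, at 21.9, 34.4 and 19.6 in the 4-cell libraries and at 2170, 2256 and 1782 in the 8-cell libraries. Its levels did not overlap between any of the 3 stages, and it rose at both steps (8-cell minus MII 9.65 ± 0.55 SE, limma adjusted p = 1.73e-10). SUPT5H stood at 126, 92.2 and 76.4 in MII, 605, 354 and 355 in 4-cell and 247, 239 and 325 in 8-cell libraries. It was above the egg at both embryo stages and did not rise again; its net call (1.44 ± 0.42, limma adjusted p = 0.0222) was lost without MII replicate 2 (adjusted p = 0.068), MII replicate 3 (0.089) or 8-cell replicate 3 (0.078). TIMM13, a chaperone of mitochondrial protein import, had 68.8 ± 19.6 scaled counts in MII, 328 ± 80.8 in 4-cell and 258 ± 37.2 in 8-cell libraries (SD, n = 3). RPSA, a protein of the small ribosomal subunit, had 545 ± 182, 1664 ± 606 and 1760 ± 446. The other 3 genes, LOC616698, LOC616710 and LOC100140569, had 0 reads in all MII libraries, means of 19.9, 27.8 and 69.6 scaled counts at 4 cells and of 233, 284 and 2132 at 8 cells. Together with SUPT4H1 they were the 4 of the 7 that rose again from 4 to 8 cells.

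The 52 genes already lower at 4 cells had 4-cell minus MII differences of -5.09 to -1.24, with a median of -2.42. PSKH1, a serine kinase, stood at 623, 488 and 347 scaled counts in MII, at 12.4, 2.26 and 24.8 at 4 cells and at 20, 6.87 and 9.19 at 8 cells. Its whole net fall (-4.99 ± 0.66, limma adjusted p = 1.68e-05) was already present in the 4-cell libraries. HSD11B2, which inactivates cortisol, stood at 928, 589 and 453 in MII, 36, 37.8 and 5.22 at 4 cells and 9.98, 7.64 and 3.94 at 8 cells. SQSTM1, the autophagy receptor p62, went from 4721, 3924 and 3732 through 959, 1110 and 603 to 114, 130 and 22.3, without overlap between any of the stages. It was 1 of 4 of these genes that fell again from 4 to 8 cells, with ODC1 (the first enzyme of polyamine synthesis), RRM1 (the large subunit of ribonucleotide reductase) and ELP2 (a subunit of Elongator). ODC1 had 14951 ± 1588 scaled counts in MII, 5266 ± 651 at 4 cells and 1546 ± 421 at 8 cells (SD, n = 3). The ribosomal protein gene RPL18 and MSN, which links actin to the membrane, had instead risen again from a lower 4-cell level: MSN had 1215 ± 94.1, 95.8 ± 10.4 and 394 ± 203. Among the other early falls were the cell cycle genes FBXO5, an inhibitor of the anaphase-promoting complex, and TACC3, a spindle protein, and the RNA-binding decay factor ZFP36L1, whose 4-cell and 8-cell levels were 1410 ± 288 and 1462 ± 320 after 4598 ± 423 in the egg.

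A separate set of 23 genes dipped at 4 cells and ended above the egg at 8 cells, so that their net rise hides an earlier fall. No gene took the opposite course among those called at both stages. Of the 23, 9 belong to the list of cytosolic ribosomal proteins, namely RPL10A, RPL13A, RPL23, RPL26, RPL36AL, RPL38, RPS25, RPS29 and FAU, whose product is cut into a ribosomal and a ubiquitin-like protein. This set was looked at after its values were seen. RPL38 stood at 99.9, 167 and 256 scaled counts in MII, 19.1, 36.7 and 18.3 at 4 cells and 769, 635 and 785 at 8 cells. The 3 stages did not overlap (8-cell minus MII 2.13 ± 0.37, limma adjusted p = 0.000353). GATA6, a factor of the later hypoblast, stood at 5.12, 9.88 and 13.7 in MII, had 0 reads in all 3 4-cell libraries and reached 140, 130 and 266 at 8 cells. TMSB10, an actin-binding peptide, had 764 ± 104, 213 ± 163 and 3448 ± 182. Of the other 4-cell falls, 50 were not called at 8 cells, and of the 11 4-cell rises 4 were not.

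**Figure D3:**
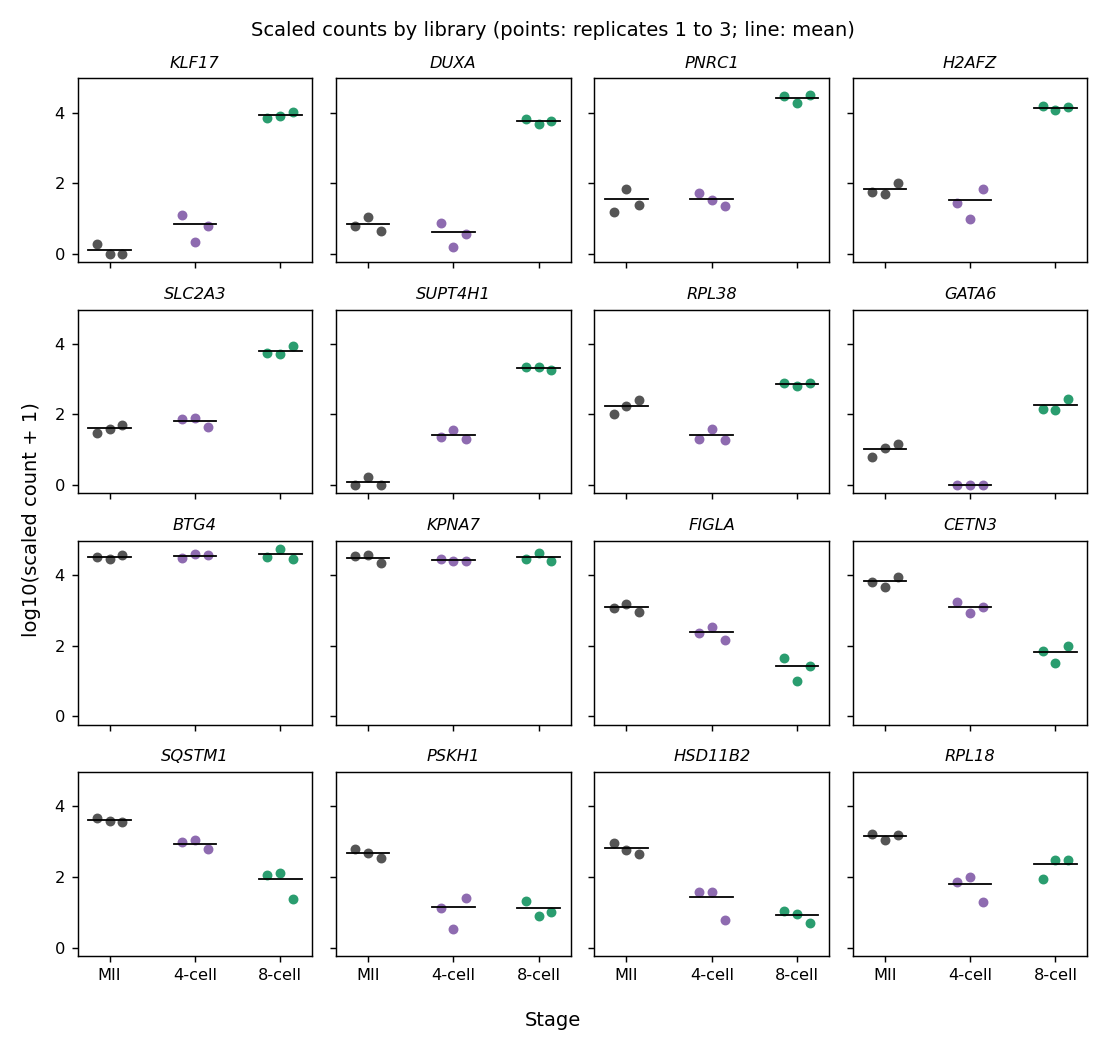
Scaled counts (log10 of scaled count + 1) of 16 genes in the MII, 4-cell and 8-cell libraries, points for replicates 1 to 3 and a line at the mean. KLF17, DUXA, PNRC1, H2AFZ and SLC2A3 stay low up to 4 cells and are high at 8 cells, RPL38 and GATA6 dip at 4 cells, BTG4 and KPNA7 stay near the top, and CETN3, FIGLA and SQSTM1 lie lower at 4 cells and lower again at 8 cells.

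Transcription factors associated with genome activation made up the list that moved most evenly. Of 32 tested, 18 rose (56.2%) and 0 fell, against 8.92% and 7.38% of all genes. Their median difference was 3.60 against 0.00 over all genes. Because the list was chosen with earlier results of these data known, the count describes the list and is no independent evidence. KLF17, a Krüppel-like factor, had the largest rise among genes with a symbol: 0.854, 0 and 0 scaled counts in MII, 11.8, 1.13 and 5.22 at 4 cells, and 7215, 7791 and 10364 at 8 cells (difference 11.63 ± 0.54, limma adjusted p = 7.18e-12). The homeobox gene DUXA stood at 5.12, 9.88 and 3.43, then 6.19, 0.564 and 2.61, then 6562, 4816 and 5695. In both genes the 8-cell libraries lay far above every egg and every 4-cell library. The fitted difference of a gene with so few reads in the egg depends on how the deposited scale treats low counts. ZSCAN4 had 0 reads in all 3 MII libraries, 30.9, 0 and 9.14 scaled counts at 4 cells and 2743, 3448 and 3069 at 8 cells. ZSCAN4 and DUXA have close copies in the genome, and their reads may be shared with those.

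TFAP2C, a factor needed later in the trophectoderm, stood at 1.71, 0 and 0 in MII and at 4361, 2876 and 4441 at 8 cells. PNRC1, a small coregulator of nuclear receptors, reached the highest 8-cell level of the list: 14.5, 67.8 and 23.2 in MII, 51.2, 31.6 and 20.9 at 4 cells and 29451, 18562 and 32086 at 8 cells, a 759-fold difference of means. The homeobox gene ARGFX had 2018 and 1369 scaled counts in 8-cell replicates 1 and 3 but 338 in replicate 2, after at most 0.854 in an egg library. KLF4 stood 35.3-fold higher at 8 cells (4719 ± 326) than in the egg (133 ± 43.2). MYC had 3.41 ± 3.06 in MII and 925 ± 551 at 8 cells. SP1, KLF10, ATF3, ZSCAN5B, MYCN, KLF3, NFYA, GATA6, MAX and TFAP2A were the other members that rose, by 1.88 (MAX) to 7.74 (KLF10). None of the 18 was called higher at 4 cells, where GATA6 was lower, and 19 of the 32 rose from 4 to 8 cells. KLF5 was not called: it stood at 179, 371 and 443 in MII and at 421, 134 and 1049 at 8 cells, and the groups overlapped.

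The machinery of RNA polymerase II changed in its parts. Of 66 subunits and general factors tested, 18 rose (27.3%) and 5 fell (7.58%), against 8.92% and 7.38% of all genes. SUPT4H1 rose most. TAF4B, a gonad-enriched subunit of TFIID, went from 256, 196 and 192 in MII and 283, 327 and 279 at 4 cells to 3379, 3863 and 3681 at 8 cells, a 16.9-fold difference with no overlap. HEXIM1, which holds the elongation kinase P-TEFb inactive, rose by 4.89, and LARP7, another member of that complex, fell by 2.17. The kinase CDK9 and its cyclins CCNT1 and CCNT2 rose by 1.55, 0.90 and 1.37. The count of rises was 11 without MII replicate 3, 10 without 8-cell replicate 1 and 11 without 8-cell replicate 3. With the MII and 8-cell libraries fitted alone 8 rose and 2 fell. Against a minimum change of 1 on the log2 scale 6 rose and 0 fell. Of 30 Mediator subunits, 6 rose (20%) and 3 fell (10%), and 5 fell without 8-cell replicate 1. CCNC, the cyclin of the kinase module, rose 20.8-fold. MED14, which joins the parts of Mediator, fell from 11424 ± 1815 to 2729 ± 468 and MED23, a subunit of the tail, from 593 ± 122 to 28.3 ± 20.8 (SD, n = 3). The median of the Mediator list was 0.08, and -0.04 with library medians set equal.

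Splicing genes were, after the activation factors, the list with the largest share of rises among the 26 lists plotted. Of 73 tested, 29 rose (39.7%) and 5 fell (6.85%), at a median difference of 0.47. Over all genes 8.92% rose and 7.38% fell. TRA2B, an activator of exon inclusion, stood at 32.5, 22.4 and 66.9 in MII, 22.5, 59.8 and 24.8 at 4 cells and 4926, 3899 and 4641 at 8 cells (6.77 ± 0.72, limma adjusted p = 1.2e-06). SFRS3, the older symbol of the splicing factor SRSF3, went from 22 ± 15.3 to 1861 ± 209. HNRNPA1, HNRNPK and HNRNPM, which coat nascent transcripts, rose by 3.23, 2.49 and 1.91, and the kinase CLK1, which phosphorylates SR proteins, by 2.70. The 5 that fell were core or associated small ribonucleoprotein components, SNRPF, SNRPD3, SNRNP27, LSM7 and EFTUD2. Sm proteins were found on both sides, since SNRPB and SNRPD1 rose by 3.61 and 1.6. The splicing list held 1 call at 4 cells, a fall.

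Some of the cytosolic ribosomal protein genes ended above the egg, and more of them were called between 4 and 8 cells. Of 81 tested, 22 rose (27.2%), 3 fell (3.7%) and 56 were not called between egg and 8 cells (median 0.63). Over all genes 8.92% rose and 7.38% fell. At 4 cells 1 member was higher and 25 were lower (30.9%, against 0.729% of all genes), at a median of -0.86. From 4 to 8 cells 47 rose (58%, against 8.64% of all genes) and 0 fell, at a median of 1.56. The summed level of the list was 42639 to 52873 in MII, 20489 to 34193 in the 4-cell and 53470 to 64913 in the 8-cell libraries, so the 3 stages did not overlap. These medians kept their signs with library medians set equal, with quantile normalization and with voom, where the net counts were 18 and 3, 23 and 4, and 15 and 2. Without MII replicate 2 or 8-cell replicate 3, 14 or 13 rose, with the MII and 8-cell libraries fitted alone 8, and against a minimum change of 1 on the log2 scale 1. The 3 that fell were RPL18, RPS15 and RPL22. RPL18 stood at 1624, 1108 and 1529 in MII, 71.4, 99.3 and 18.3 at 4 cells and 89.1, 310 and 303 at 8 cells, and RPS15 at 919, 936 and 725, then 204, 143 and 185, then 131, 75.6 and 420. Both stayed below the egg in every embryo library. Ribosomal protein genes have many processed copies, and reads may be shared among them.

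Among the other genes of ribosome production and translation, calls of a rise outnumbered calls of a fall. Of 71 ribosome biogenesis genes, 18 rose (25.4%), 3 fell (4.23%) and 50 were not called (median 0.44). Over all genes 8.92% rose and 7.38% fell. At 4 cells 0 of the 71 were called in either direction. TAF1D, a subunit of the RNA polymerase I factor SL1, went from 22.2, 15.1 and 52.4 in MII to 3147, 4853 and 3139 at 8 cells, and NOP56, a core protein of box C/D ribonucleoproteins, from 142, 103 and 52.4 to 785, 937 and 1533. POLR1B, the second largest subunit of RNA polymerase I, fell from 1132 ± 57.7 to 479 ± 102 (SD, n = 3). The rises numbered 11 without 8-cell replicate 3, and the falls numbered 1 without any single MII replicate or without 8-cell replicate 1. With the MII and 8-cell libraries fitted alone 11 rose and 1 fell. Against a minimum change of 1 on the log2 scale 6 rose and 0 fell. Of 53 translation factors, 12 rose (22.6%), 1 fell (1.89%) and 40 were not called (median 0.53). With the MII and 8-cell libraries fitted alone 3 rose, and against the minimum change 2 rose and 0 fell. ETF1, which recognises stop codons, rose 22.9-fold, from 157 ± 57.3 to 3602 ± 1221. EIF6, which keeps the large ribosomal subunit from joining too early, stood at 1037, 2823 and 1281 in MII and 10774, 5005 and 13921 at 8 cells. EIF1AX, a start-site factor known as a marker of activation in cattle, rose by 1.74 ± 0.39. Its call was lost with the MII and 8-cell libraries fitted alone (limma adjusted p = 0.058) and against the minimum change (0.34). The 1 that fell was EIF3L, and 3 fell without 8-cell replicate 3.

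Chromatin genes rose in part and held changes of both directions. H2AFZ, the gene of the histone variant H2A.Z, stood at 53.8, 48.1 and 102 in MII, 25.9, 8.46 and 65.3 at 4 cells and 15184, 11845 and 14360 at 8 cells (7.64 ± 0.49, limma adjusted p = 8.75e-10). Of 26 histone genes and their chaperones, 6 rose (23.1%) and 1 fell (3.85%), against 8.92% and 7.38% of all genes. The 1 that fell was NASP, a histone chaperone. NASP lost its call without MII replicate 1, 2 or 3 or 8-cell replicate 1 or 3 and with library medians set equal (limma adjusted p between 0.058 and 0.089), while 2 members fell without 8-cell replicate 2 or 4-cell replicate 2. Of 49 chromatin remodellers, 10 rose (20.4%) and 3 fell (6.12%), at a median of 0.35, and 6 rose without 8-cell replicate 3. CHD1, which remodels nucleosomes in transcribed genes, stood at 186, 358 and 346 in MII and 3469, 1755 and 5679 at 8 cells. RBBP7, a histone-binding subunit of several complexes, fell from 11130 ± 689 to 3347 ± 772. Of 68 histone-modifying enzymes, 11 rose (16.2%) and 3 fell (4.41%), at a median of 0.36. There were 7 rises without MII replicate 3 or 8-cell replicate 1 and 1 fall without MII replicate 1 or 2 or 8-cell replicate 2. SETD2, which trimethylates histone H3 in transcribed genes, went from 218, 455 and 274 to 6195, 1991 and 7926, and EED and SUZ12, core subunits of Polycomb repressive complex 2, rose by 2.82 and 1.49.

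Genes of DNA methylation moved apart. Of 25 tested, 4 rose and 4 fell (16% each, against 8.92% and 7.38% of all genes). The median, 0.03, was -0.09 with library medians set equal and 0.12 with voom. TET1, which oxidises methylated cytosine, stood at 24.8, 12.5 and 40.3 in MII and 1242, 919 and 3826 at 8 cells, a 77.1-fold difference. The genes of maintenance methylation fell: UHRF1 stood at 9002, 7021 and 9184 in MII, 8234, 4173 and 8576 at 4 cells and 3058, 1940 and 2218 at 8 cells, and the methyltransferase DNMT1 went from 5554 ± 562 to 2620 ± 771. Neither fall was called at 4 cells. DPPA3, which protects maternal DNA from demethylation, was not called and stood at 21309 ± 1409 in the egg and 28200 ± 11612 at 8 cells.

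Oocyte genes lay on the falling side, with members that fell strongly beside others that were not called. Of 37 oocyte and maternal-effect genes, 11 fell (29.7%) and 2 rose (5.41%, TAF4B and BTG3), against 7.38% and 8.92% of all genes. The median was -1.20, and voom called 16 lower and 3 higher. The summed level of the list was 260821, 227491 and 233413 in MII and 164438, 243108 and 125998 at 8 cells, so 8-cell replicates 1 and 3 lay below every egg library and replicate 2 within their range. The 8-cell and MII values of 25 of the 37 did not overlap, against 29.9% of all genes. The falls numbered 7 without MII replicate 1, 6 without 8-cell replicate 3 and 3 against a minimum change of 1 on the log2 scale. FIGLA, a transcription factor of the growing oocyte, stood at 1208, 1506 and 926 in MII, 226, 341 and 146 at 4 cells and 42.8, 9.16 and 24.9 at 8 cells, and UCHL1, an abundant deubiquitinase of oocytes, at 1747, 1316 and 1004, then 940, 1303 and 423, then 11.4, 57.3 and 53.8. The means were 47.3-fold and 33.2-fold lower at 8 cells, and the groups did not overlap. The egg coat genes ZP2 and ZP3 fell to 13447 ± 5440 from 40912 ± 4489 and to 476 ± 148 from 4454 ± 1145 (SD, n = 3), while ZP4 was not called (-0.87 ± 0.47). NOBOX, another oocyte transcription factor, fell by 2.51.

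Other maternal transcripts stayed among the most abundant of the embryo. BTG4, an adaptor of the deadenylase that degrades maternal RNA, stood at 32447, 29497 and 38596 in MII, 30599, 39658 and 37118 at 4 cells and 33750, 54177 and 28564 at 8 cells (difference 0.17 ± 0.61). KPNA7, the oocyte importin alpha, stood at 34602, 37371 and 22656, then 28526, 25238 and 25544, then 29349, 42881 and 24572 (0.03 ± 0.34). In both genes 8-cell replicate 2 was the highest 8-cell library, and the difference turned to -0.10 and -0.20 without it. BMP15 (0.52 ± 0.41), GDF9 (-0.94 ± 0.51), DPPA3 (0.31 ± 0.37), H1FOO (-0.97 ± 0.48) and NLRP5 (-1.12 ± 0.88) were not called either; a missed threshold does not show that these levels stayed equal, and voom called BMP15 higher (adjusted p = 0.019). MOS (limma adjusted p = 0.0611) and NPM2 (0.0609) lay 5.6-fold and 4.5-fold lower at 8 cells just beyond the threshold, and several other settings called them lower. ZAR1 lay just inside it (adjusted p = 0.0485) and lost the call without any 1 of the 9 libraries except 8-cell replicate 2, with adjusted p-values between 0.058 and 0.23.

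**Figure D4:**
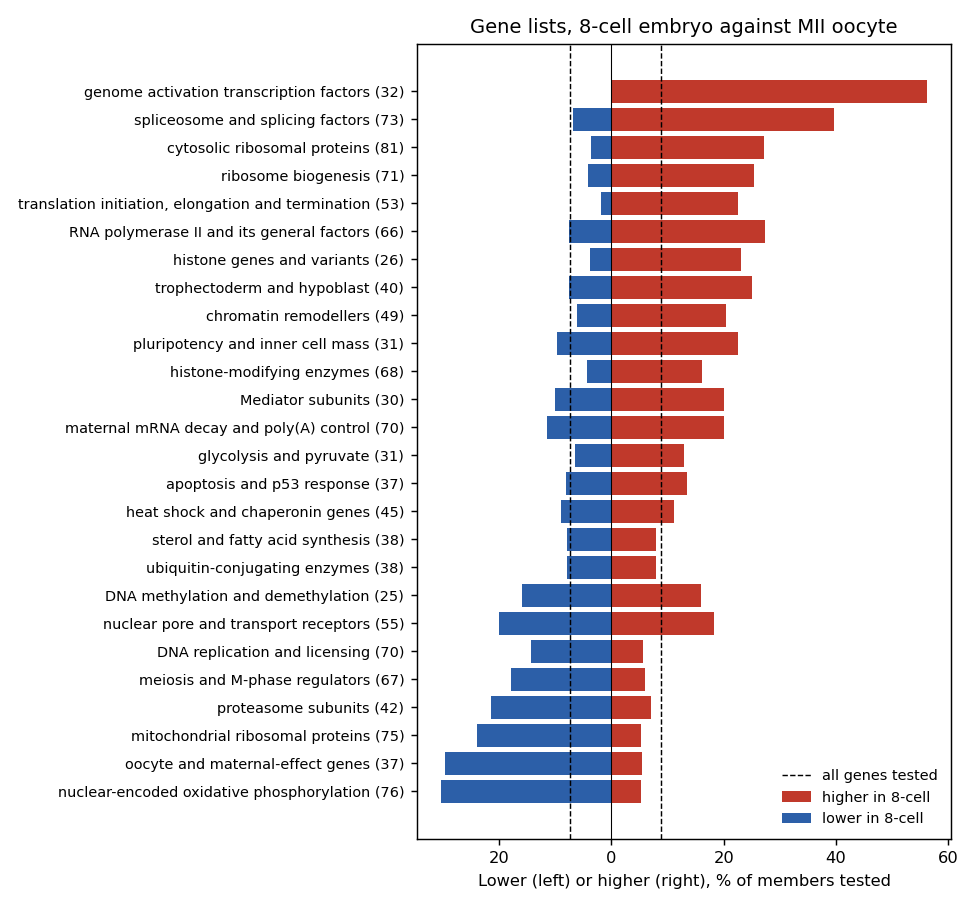
Share of the tested members of each gene list called lower (blue, left of 0) or higher (red, right of 0) in 8-cell embryos than in MII oocytes, in percent, with the number tested in parentheses. Dashed lines mark the shares over all genes, 7.38% lower and 8.92% higher.

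Among all genes the largest falls were in single genes of varied function. CETN3, a centrin of the centrosome, had the largest fall among genes with a symbol: 6423, 4505 and 9118 scaled counts in MII, 1754, 839 and 1235 at 4 cells and 69.2, 32.1 and 99.7 at 8 cells (-6.62 ± 0.58, limma adjusted p = 6.95e-08). The 3 stages did not overlap, although the 4-cell difference by itself was not called (-2.39, limma adjusted p = 0.0565). TRDMT1, a methyltransferase of transfer RNA, stood at 424, 480 and 428 in MII and at 2.14, 0.764 and 9.19 at 8 cells. LAMP3, a lysosomal membrane protein, had 133, 158 and 310 reads in the MII libraries and 0 in all 3 8-cell libraries. IL13RA1, SLC28A1, MRPL42, PLS1, COQ2 and MAPRE3 fell by 5.25 (MAPRE3) to 6.19 (IL13RA1).

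Regulators of meiosis and M phase fell more often than they rose. Of 67 tested, 12 fell (17.9%) and 4 rose (5.97%), against 7.38% and 8.92% of all genes. The median was -0.26, and 7 fell without MII replicate 2. With the MII and 8-cell libraries fitted alone 7 fell, and against a minimum change of 1 on the log2 scale 0 fell and 1 rose. PTTG1, the securin that restrains sister chromatid separation, stood at 31508, 23065 and 18371 in MII, 22533, 16881 and 12116 at 4 cells and 6274, 9011 and 4305 at 8 cells. FBXO5 stood at 18233, 19648 and 19735, then 6021, 6338 and 7343, then 5211, 5156 and 3519, so that most of its fall preceded the 4-cell stage. Its 8-cell and 4-cell libraries did not overlap either, but that step was not called (-0.52, limma adjusted p = 0.392). AURKA, the kinase of spindle assembly, was not called and stood at 31295 ± 2805 in MII and 38725 ± 11209 at 8 cells. The 4 that rose were WEE1, an inhibitor of CDK1, PLK4, which starts centriole duplication, CDK1 itself and BIRC5. WEE1 stood at 9.39, 10.5 and 1.72 in MII and 108, 139 and 348 at 8 cells. Of 70 DNA replication genes, 10 fell (14.3%) and 4 rose (5.71%), at a median of -0.15, and 6 fell without MII replicate 1. With the MII and 8-cell libraries fitted alone 6 fell, and against the minimum change 3 fell and 2 rose. The cyclins of S-phase entry rose, CCNE1 from 121 ± 26.4 to 1156 ± 237 and CCNE2 15.3-fold, while RRM1 and RPA3, a subunit of the single-strand binding protein, fell 8.14-fold and 5.79-fold.

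Genes of mitochondria and of the proteasome lay on the falling side. Of 76 nuclear genes of oxidative phosphorylation, 23 fell (30.3%) and 4 rose (5.26%), at a median of -0.76. Over all genes 7.38% fell and 8.92% rose. The 4 became 2 without MII replicate 3 or 8-cell replicate 3 and 9 without 8-cell replicate 2, and no single library moved the 23 by more than 1.5 times. The 23 became 14 with the MII, 4-cell and 8-cell libraries fitted alone and 6 with the MII and 8-cell libraries alone. Against a minimum change of 1 on the log2 scale they were 9. ATP5O, a subunit of ATP synthase, stood at 1636, 1717 and 1275 in MII, 777, 847 and 496 at 4 cells and 350, 205 and 286 at 8 cells. NDUFS4, a subunit of complex I, went from 276, 386 and 501 to 17.8, 14.5 and 70.9, and NDUFB2, of the same complex, rose from 45.3, 54 and 78.1 to 287, 249 and 542. Of 75 mitochondrial ribosomal proteins, 18 fell (24%) and 4 rose (5.33%), at a median of -0.81. Falls numbered 11 without MII replicate 1, 5 with the MII and 8-cell libraries fitted alone and 4 against the minimum change. Rises numbered 2 without MII replicate 2 or 3 or 8-cell replicate 1 or 3. MRPL42 stood at 481, 461 and 460 in MII and at 42.8, 0 and 6.56 at 8 cells, while MRPL17 rose from 44.7 ± 7.54 to 479 ± 81.3. At 4 cells 4 members of each of these lists were called lower and 0 higher. Of 42 proteasome subunits, 9 fell (21.4%) and 3 rose (7.14%), at a median of -0.27. Rises numbered 0, 1 and 0 without MII replicate 2, MII replicate 3 and 8-cell replicate 3. Against the minimum change 3 fell and 0 rose. PSMB1, of the catalytic core ring, had 2437 ± 522 in MII, 508 ± 98.3 at 4 cells and 457 ± 95.6 at 8 cells.

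Detection showed the same contrast in another way. Reads were found in all 3 8-cell libraries and in no MII library for 288 genes, at a median of 35 scaled counts in the embryo. Of these, 128 had no read in any 4-cell library, 91 had reads in 1, 51 in 2 and 18 in all 3. The reverse held for 176 genes, with reads in all 3 MII libraries and none at 8 cells, at a median of 5.95 scaled counts in the egg, and 62 of them had reads in all 3 4-cell libraries. With each library thinned to 5206082 reads the counts were 291 and 154. At 5 or more reads in each library of the detected stage they were 179 and 48. Without 8-cell replicate 2, 657 genes were gained, and the lost genes numbered 297 without MII replicate 1, 278 without MII replicate 3, 345 without 8-cell replicate 1 and 393 without 8-cell replicate 3. Leaving a library out loosens the rule, so these counts can only stay or rise. The most abundant gained gene, LOC510631, which has no symbol in the sources used here, had 36088, 14698 and 19603 reads in the 8-cell libraries and none in any MII or 4-cell library. ZNF41, a zinc finger gene, had 2300, 1587 and 794 reads at 8 cells and also none before. MBD3L2, related to a methyl-CpG binding protein, and CXCL2, a chemokine, reached 2577 ± 638 and 1594 ± 992 scaled counts (SD, n = 3). MBD3L2 belongs to a family of near copies. The lost genes were low by comparison: the next after LAMP3 was LOC100138392 with 70, 128 and 37 reads in the egg, and the next with a symbol was SCD, an enzyme of fatty acid desaturation, with 22, 140 and 44, and these values for LOC510631, LOC100138392 and SCD were picked after they were seen.

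XIST, the long RNA of X inactivation, missed the threshold and lay far apart among the 8-cell pools. It stood at 23.1, 11.2 and 54.9 scaled counts in MII, 11.3, 0 and 6.53 at 4 cells and 686, 32.1 and 1011 at 8 cells (3.34 ± 1.23, limma adjusted p = 0.07). Replicate 2 lay within the range of the egg libraries and the other 8-cell libraries above it, and without replicate 2 the difference was 4.85 with an adjusted p of 0.0065. With array weights it was called as well (4.49, limma adjusted p = 0.0023). NANOG, a pluripotency factor, showed the same order of pools, with 0 reads in MII, 6.19, 0 and 9.14 at 4 cells and 193, 9.16 and 387 at 8 cells, and was called (5.55 ± 1.02, limma adjusted p = 0.000543). POU5F1, the other central pluripotency factor, stood at 84.6, 115 and 114 in MII, 331, 193 and 183 at 4 cells and 152, 202 and 181 at 8 cells. Its embryo libraries lay above the egg libraries, but neither stage was called (0.75 ± 0.38 at 8 cells, limma adjusted p = 0.209).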

How the data were processed

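RNA of 18 pools of bovine oocytes or embryos was measured by sequencing, and the 9 libraries of MII oocytes, 4-cell and 8-cell embryos were compared here, with the other 9 adding to the estimate of spread. Per the labels' protocols, cDNA was made with mixed random and poly(A) primers, amplified isothermally and sequenced as single reads; no strand marking is described, so a gene's reads may include those of an antisense neighbour, and reads are not independent molecules. The authors deposited 1 table of log2-like, variance-stabilised values for 21668 genes. The submitters' processing notes list DESeq, HTSeq, TopHat2 2.0.3 and CASAVA 1.6, with UMD3.1 as the build; the annotation and how reads with several matches were treated were not given in the sources used here.

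The transformation was inverted in closed form, and all 390024 values gave whole reads within 1e-08. The deposited values were tested with limma 3.58.1 (R 4.3.3), a model of 6 stages over 18 libraries with empirical Bayes and a variance trend, two-sided, with Benjamini-Hochberg adjustment over the 17138 genes that had a read in 3 or more libraries, and adjusted p under 0.05 counted as a call. The test was chosen for a log2-scale table, and the reads served for levels, filters and a voom alternative. A difference approaches a log2 fold change for well covered genes and understates that of low ones. Levels are means ± SD over 3 pools, differences ± SE. The procedure was run on simulated data in which a gene had the same spread in every stage and only genes above a minimum level were changed. That run does not cover stages of unequal spread or genes with few reads in the egg. Tables and plots were made with pandas 2.3.3 and matplotlib 3.10.9 under Python 3.11.15.

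Symbols came from the table and, for 2521 of 5890 genes listed by locus number (among them DUXA, GATA6, CT55, ZNF41, TET1 and MED14), from an NCBI RefSeq table of assembly ARS-UCD2.0 used for names alone; 18813 genes matched it and 3571 have no symbol.

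The comparison, the 29 gene lists (the 26 plotted and the cumulus, sperm and blood markers) and the genes to be named were chosen with earlier results of these data known, and lists are described by counts and medians. Named were the 12 largest rises and 12 largest falls with a symbol and no overlap between the libraries, per list and called direction the 2 members of smallest p, the 6 largest changes in each direction among genes called alike at 4 and 8 cells, and a panel of 25 oocyte and embryo genes, of which LEUTX and HSPA1A were not analysed here. Other genes named were chosen after their values were seen. Alternatives were other scalings, voom, pseudocounts of 1 and 10, other filters, fewer libraries, array weights, robust moderation, a minimum change, a replicate block and leaving out each library.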

Additional observations from a re-analysis of the deposited data

How the results depend on the processing

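Rises ranged from 1117 to 1841 and falls from 822 to 1210 when single libraries were left out, and changes already called at 4 cells from 2 to 10 (rises) and 22 to 75 (falls). With the MII and 8-cell libraries fitted alone, 869 genes rose and 666 fell, and 1344 of the 2792 calls remained. Against a change of at least 1 on the log2 scale (treat), 595 rose and 229 fell, 72.2% rises, with 1 rise and 5 falls already called at 4 cells. Array weights gave 95 and 347 already called, voom 83 such falls, equal library medians 30, and the 9 libraries fitted alone 27. Genes gained ranged from 323 to 657 and genes lost from 234 to 393 without single libraries, and at 5 or more reads they were 179 and 48. By the rule, leaving a library out can only keep or raise these counts, and a higher read minimum can only keep or lower them. Of the 2792 calls, 2255 remained without 8-cell replicate 2 and 1883 without MII replicate 1, the lowest number over the libraries left out. The replicate block gave 1624 rises, 1402 falls and 14 rises and 64 falls already called at 4 cells. It called XIST (adjusted p = 0.019) and MOS (0.0082) and lost TNP1 (0.06) and ZAR1 (0.052). Deviations of same-numbered libraries correlated at 0.013, -0.012 and 0.028 between MII and 8 cells, at 0.076, -0.002 and 0.124 between MII and 4 cells and at 0.017, 0.062 and 0.054 between 4 and 8 cells. In the last of these each library correlated best with its own number, in the others not all did. With 1 of the 9 values above 0.1 the numbers were not taken to pair the pools. Of 133 named genes called, 55 lost the call in at least 1 alternative, 18 of them without at least 1 library, and 0 reversed; 48 did so under the minimum change and 26 with 6 libraries alone. Of 58 list counts 55 moved by over 1.5 times in at least 1 alternative. Depth limits what can be said of genes near 1 read, and the causes of these shifts were not tested. A planned search of promoter motifs was not run.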

Other observations

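Lists of glycolysis and pyruvate use, of lipids and of chaperones had shares of calls near those over all genes (8.92% higher, 7.38% lower). Their counts are no result about these groups, and single members are given. Of 31 genes of glycolysis and pyruvate use, 4 rose (12.9%) and 2 fell (6.45%), and 1 fell without MII replicate 1 or 2. SLC2A3, the glucose transporter GLUT3, stood at 29, 38.9 and 50.6 scaled counts in MII, 72.6, 76.2 and 44.4 at 4 cells and 5395, 5265 and 8486 at 8 cells, a 162-fold difference of means (limma adjusted p = 4.98e-11). PGK1, a glycolytic kinase, rose 6.33-fold, and PDK4, a kinase that inhibits pyruvate dehydrogenase, fell from 2.56, 119 and 80.7 to 0.713, 0 and 1.31. MII replicate 1 held 3 reads of PDK4, against 181 and 94 in replicates 2 and 3. The PDK4 call was lost with the MII, 4-cell and 8-cell libraries fitted alone (limma adjusted p = 0.064). It was also lost with the MII and 8-cell libraries alone (0.17) and against a minimum change of 1 on the log2 scale (0.051). Of 38 sterol and fatty acid genes, 3 rose and 3 fell (7.89% each), and 1 and 0 fell without MII replicates 1 and 3. CYP51A1, an enzyme of cholesterol synthesis, rose 19-fold, from 5.12, 19.1 and 35.2 to 175, 651 and 302. Of 45 heat shock and chaperonin genes, 5 rose (11.1%) and 4 fell (8.89%). DNAJB9, a chaperone of the endoplasmic reticulum, stood at 0, 1.98 and 32.6 in MII and 436, 349 and 577 at 8 cells, while HSP90AB1, a cytosolic HSP90, fell from 4055 ± 233 to 1460 ± 297 and HSP90B1, its counterpart in the endoplasmic reticulum, 3.26-fold.

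The lists of RNA decay, nuclear transport and later lineages held calls in both directions, to be read against the same shares over all genes. Of 70 genes of maternal mRNA decay and poly(A) control, 14 rose (20%) and 8 fell (11.4%), 9 and 5 did without each of the 3 MII replicates, and 9 and 7 with library medians set equal. ZCCHC6, which adds uridines to RNA ends, stood at 1004, 1090 and 1315 in MII and 14043, 7021 and 18269 at 8 cells, and YTHDF2, a reader of methylated RNA, at 50.4, 77.1 and 104 and then 842, 1247 and 1155, whereas the cleavage factor CSTF2 fell 9.41-fold. Of 55 nuclear pore and transport genes, 10 rose (18.2%) and 11 fell (20%); KPNA4, an importin alpha, rose 18.8-fold and the pore subunit NUP155 fell 5.74-fold. Of 31 pluripotency genes, 7 rose (22.6%) and 3 fell (9.68%), among them ZFP42, which had 0.854, 0 and 0 scaled counts in MII and 928, 381 and 886 at 8 cells, and KLF2, which fell 29.4-fold. Of 40 trophectoderm and hypoblast genes, 10 rose (25%) and 3 fell (7.5%), and 1 fell without each MII or 4-cell replicate or 8-cell replicate 3. EOMES, a T-box factor, had 0 reads in MII and stood at 389, 162 and 295 at 8 cells, while the tight junction gene TJP1 fell from 4238 ± 423 to 1298 ± 228. Shares near the background were found for 2 further lists. Of 37 apoptosis and p53 genes, 5 rose (13.5%) and 3 fell (8.11%), with 3 rises without MII replicate 1 or 8-cell replicate 3; the survival gene MCL1 rose 3.39-fold and APAF1, of the apoptosome, fell 4.04-fold. Of 38 ubiquitin-conjugating genes, 3 rose and 3 fell (7.89% each); 0 rose and 2 fell with library medians set equal, 0 rose without MII replicate 1 or 2, 1 without 8-cell replicate 1 or 2, and 6 fell without 8-cell replicate 2.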
